A study of Drosophila melanogaster with 2 samples.

Results

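The 8 Hox genes of the fly are lab, pb, Dfd, Scr and Antp in the Antennapedia complex and Ubx, abd-A and Abd-B in the bithorax complex, both on 3R. Binding of the homeodomain protein Rx was followed across these genes through every deposited peak whose summit lay in 1 of them or within 10 kb of it. Of 3303 peaks in the main list, 8 met this rule. The 3 other thresholded lists gave 12 of 3476, 8 of 2438 and 9 of 2209 peaks, and the ranked list behind the main list gave 515 of 138548. The genes with their 10 kb margins covered 497.5 kb of the 137.5 Mb of the chromosome arms, and no margins overlapped.

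Chromatin came from whole Drosophila melanogaster embryos of the strain Rx-GFP, 0 to 24 h old, whose transgene makes an Rx-eGFP fusion protein that was precipitated through its GFP tag. The labels give 1 group of 2 biological replicates, and the comparisons made are between replicates, between lists, and between the Hox genes and the arms. Each replicate has a thresholded and a ranked list, and the series has 2 of each. The main list is the series-wide one whose name calls it conservative, thresholded on the irreproducible discovery rate (IDR), a measure of how well peak ranks recur between data sets. All cells of the embryo were pooled over all of embryonic development, so binding in few cells and weak binding in many cannot be told apart.

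Hox genes encode homeodomain transcription factors that give segments their identity along the head-to-tail axis, and they lie on the chromosome in the order of the segments they pattern. Long introns and intergenic stretches hold their enhancers, their Polycomb response elements, where silencing proteins gather, and the insulators that keep neighbouring enhancer domains apart. Rx belongs to the paired class of homeodomain proteins, is not a Hox protein, and is known for roles in the head and brain.

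The sequences under the Hox peaks are the reference DNA of the intervals called as peaks, and no reads were examined. Those below are on the plus strand of dm6, from the Release 6 reference genome in RefSeq. Capitals mark matches, on either strand, to the homeodomain core TAATTA, the Hox-Exd word TGATNNAT, the K50 homeodomain word TAATCC, the CTCF-like word AGNTGGCGC of an insulator protein, the GAGA word GAGAG, the Pho word GCCAT and the 6-mer ACAGTG. The GAGA factor and Pho are proteins that recruit or oppose Polycomb silencing. Where matches adjoin or overlap they form 1 run of capitals. The set holds the highest peak of each of the 4 genes that had any, the Antp and Abd-B peaks with paired words, and the highest unthresholded peak of Dfd.

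abd-A side, 3R:16798819-16798954: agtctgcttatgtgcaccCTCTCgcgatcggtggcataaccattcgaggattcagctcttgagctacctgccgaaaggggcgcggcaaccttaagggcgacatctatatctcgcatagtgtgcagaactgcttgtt
Antp intron, 3R:6920053-6920336: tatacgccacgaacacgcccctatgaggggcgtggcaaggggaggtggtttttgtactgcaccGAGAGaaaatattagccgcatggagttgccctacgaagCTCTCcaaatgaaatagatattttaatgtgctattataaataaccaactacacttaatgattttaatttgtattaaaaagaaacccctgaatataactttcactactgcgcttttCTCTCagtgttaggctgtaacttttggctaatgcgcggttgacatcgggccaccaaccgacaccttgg
Antp intron, 3R:6912251-6912534: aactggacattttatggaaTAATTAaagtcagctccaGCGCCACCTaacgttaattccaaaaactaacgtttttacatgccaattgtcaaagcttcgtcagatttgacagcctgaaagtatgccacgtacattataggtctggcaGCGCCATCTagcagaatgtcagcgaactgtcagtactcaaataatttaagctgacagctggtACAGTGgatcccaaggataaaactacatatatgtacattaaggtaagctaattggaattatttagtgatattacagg
Scr side, 3R:6818639-6818922: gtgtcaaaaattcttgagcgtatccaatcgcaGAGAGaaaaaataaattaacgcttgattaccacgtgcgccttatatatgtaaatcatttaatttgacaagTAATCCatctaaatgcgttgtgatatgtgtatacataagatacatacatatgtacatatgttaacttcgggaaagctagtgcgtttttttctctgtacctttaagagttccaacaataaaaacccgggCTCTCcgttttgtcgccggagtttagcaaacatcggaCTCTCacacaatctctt
Abd-B intron, 3R:16969955-16970238: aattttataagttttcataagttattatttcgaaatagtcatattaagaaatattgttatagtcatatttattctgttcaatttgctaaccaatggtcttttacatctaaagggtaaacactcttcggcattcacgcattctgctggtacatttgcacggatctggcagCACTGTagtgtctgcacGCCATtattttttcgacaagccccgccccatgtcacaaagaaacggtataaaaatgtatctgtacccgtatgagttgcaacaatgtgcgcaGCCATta
Abd-B intron, 3R:16958292-16958575: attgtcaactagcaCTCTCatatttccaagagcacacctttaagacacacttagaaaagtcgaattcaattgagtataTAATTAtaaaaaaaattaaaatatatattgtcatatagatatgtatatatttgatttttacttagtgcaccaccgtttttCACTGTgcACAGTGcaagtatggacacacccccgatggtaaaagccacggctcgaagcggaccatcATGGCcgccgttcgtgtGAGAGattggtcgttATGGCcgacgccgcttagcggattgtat
Dfd upstream, 3R:6791438-6791721: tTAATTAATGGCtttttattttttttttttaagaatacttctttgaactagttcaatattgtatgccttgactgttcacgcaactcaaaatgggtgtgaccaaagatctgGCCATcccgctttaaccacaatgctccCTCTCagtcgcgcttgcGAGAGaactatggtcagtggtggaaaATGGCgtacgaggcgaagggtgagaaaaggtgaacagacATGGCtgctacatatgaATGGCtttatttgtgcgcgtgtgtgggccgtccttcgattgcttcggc

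The main list placed peaks at 4 of the 8 Hox genes, Scr, Antp, abd-A and Abd-B, and none at lab, pb, Dfd or Ubx. Over all 13968 protein-coding genes of the arms, 51.6% had a main-list summit within the same distance, and of the 1873 genes at least as long as Dfd, the shortest Hox gene, 63.6% had one. In the other series-wide list 6 of 8 Hox genes had a summit, where 53.0% of all genes did. In the list of replicate 1 the count was 4 of 8, with 44.0% of all genes, and in that of replicate 2 it was 5 of 8, with 41.8%. The Hox count was thus near the share of all genes in the main list and in replicate 1, and above it in the other series-wide list and in replicate 2. The share among genes at least as long as Dfd was computed for the main list alone, where it exceeded that of all genes. With 8 genes a difference of moderate size was not detectable. In the ranked lists all 8 genes had summits, where 97.4% of all genes had one in the main ranked list, 97.5% in the other, 97.4% in replicate 1 and 98.2% in replicate 2, so presence there says little.

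Per length the Hox genes were not detectably denser in peaks than the arms. The main list had 16.1 summits per Mb over the Hox genes (95% exact Poisson interval 6.94 to 31.7), against 23.6 per Mb on the arms and 22.6 on 3R. That is 0.681 of the density of the arms, with an interval of 0.294 to 1.34. The other series-wide list gave a ratio of 0.969, replicate 1 gave 0.917 and replicate 2 gave 1.14, and every interval included 1. The intervals cover counting error only, since read depth is unknown and peaks of 1 library are not independent.

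**Figure D1:**
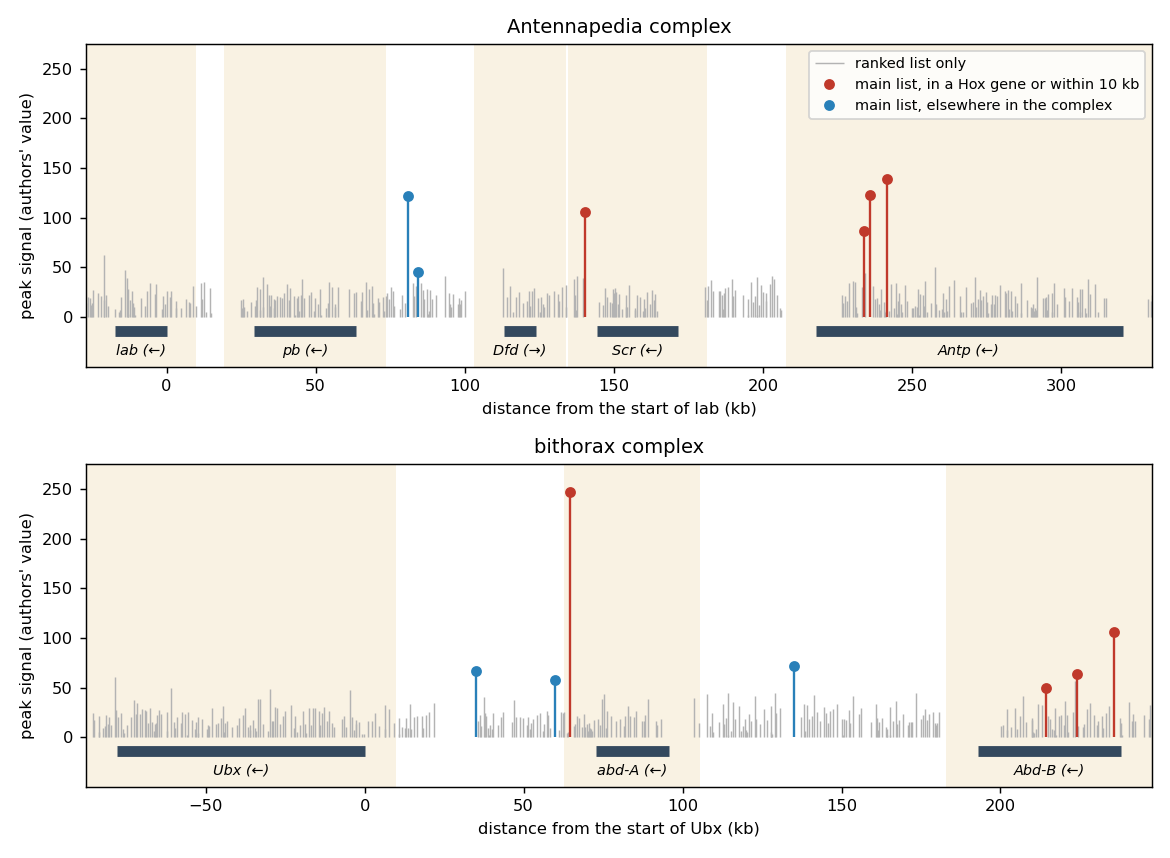
Peak signal along the Antennapedia complex (top) and the bithorax complex (bottom) against distance from the start of lab or of Ubx, in kb; dark bars are the Hox genes with arrows for their strand, and shading marks the gene with its 10 kb margins. Red points are the 8 main-list peaks of the Hox genes, from 49.6 to 246.9, blue points the 5 main-list peaks elsewhere in the complexes, and grey lines the peaks of the ranked list alone, which is empty over the starts of Scr and abd-A.

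The ranked lists left whole stretches of the Hox genes without any peak. Ranked peaks lay about 1 per kb on the arms, yet the main ranked list had 1896 stretches of over 5 kb with none, a limit chosen after seeing the data, which made up 18.7% of the Hox sequence and 22.8% of the arms. The share over the Hox genes was 20.5% in the other ranked list, 15.0% in replicate 1 and 15.2% in replicate 2, against 21.9%, 24.8% and 21.5% of the arms. In the main ranked list one such stretch, 3R:6843318-6859197, held both annotated starts of Scr, and 3R:16827910-16837817 held all 3 of abd-A. Others at Antp, 3R:6993729-7007694 and 3R:6884827-6904864, held its most upstream start and its 3′ end. The most upstream start fell in such a stretch for 3 of 8 Hox genes, against 15.5% of all genes and 17.9% of those at least as long as Dfd. The counts were 4 of 8 in the other ranked list, 2 of 8 in replicate 1 and 2 of 8 in replicate 2, against 14.8%, 16.8% and 11.2% of all genes. For Scr it did so in all 4 ranked lists. The most upstream start of Antp lay in such a stretch in 3 of the 4, and those of abd-A in the 2 series-wide lists but in neither replicate's. Each thresholded list is a part of its ranked list, so it too holds no peak in these stretches. Why they are empty was not tested. Outside them the main-list density was 19.8 per Mb over the Hox genes against 30.6 on the arms, a ratio of 0.647 (0.279 to 1.27).

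Among the Hox genes, Antp and Abd-B carried most of the thresholded peaks. Antp, which specifies thoracic identity, had 3 main-list summits, all in introns, with signals of 138.6, 122.4 and 86.9. Signal is the authors' peak height, whose scale is not stated, and the median on the arms was 90.1 in this list. Abd-B, which patterns the posterior abdomen and genitalia, also had 3 intronic summits, with signals of 105.6, 63.8 and 49.6. Of all protein-coding genes 10.2% had at least 3 main-list summits by the same rule, with no account taken of length. Per length, Abd-B had 46.1 summits per Mb (exact Poisson interval 9.51 to 135) and Antp had 24.4 (5.03 to 71.3), and these intervals overlap.

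The 3 main-list Antp peaks sat together in 1 stretch of the gene. Antp runs from 6896253 to 6999228 on the minus strand of 3R, and the summits lay 12645, 18282 and 20447 bp downstream of its nearest annotated start. Neighbouring summits were 5637 and 2165 bp apart. All 3 also lie within CG46458, a gene annotated over the same stretch. The peak at 3R:6920053-6920336 had a signal of 61.9 in replicate 1 and 78.2 in replicate 2. The peak at 3R:6914416-6914699 had 81.6 in replicate 1 and 46.5 in replicate 2, so the order of these peaks by height differed between replicates. The lowest, 3R:6912251-6912534, had 35.9 and 43.9 in replicates 1 and 2, and was the lowest of the 3 in both. All 3 were in both replicates' own thresholded lists. The list of replicate 1 also had an Antp peak outside this stretch, 3R:6936195-6936474, with 40.4, which passed in no other thresholded list. The other series-wide list had a further one within the stretch, 3R:6912741-6913024, with 44.5.

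Abd-B has 6 annotated starts, and its summits lay close to some of them without reaching any promoter, taken as 500 bp either side of a start. The peak at 3R:16969955-16970238 lay 1523 bp upstream of the nearest start and had 52.4 in replicate 1 and 55.3 in replicate 2. The peak at 3R:16958292-16958575 lay 1847 bp downstream of another, with 42.3 in replicate 1 and 24.4 in replicate 2. Of the replicates' thresholded lists it was in that of replicate 1 alone. A separate peak close by, 3R:16957802-16958085, was absent from the main list and had 56.5 in the other series-wide list. It had 18.2 in replicate 1 and 42.8 in replicate 2, and passed in the thresholded list of replicate 2 but not of replicate 1. The third main-list peak, 3R:16948763-16949046, lay 4632 bp upstream of a start, with 23.4 in replicate 1 and 32.7 in replicate 2. It was in neither replicate's thresholded list and ranked 3094 of 3250 by signal. Abd-B thus held the peak at the low end of the Hox set, while its highest was in both replicates.

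The highest peak of all was beside abd-A, which gives the anterior abdominal segments their identity. It lay at 3R:16798819-16798954, 8319 bp beyond the 3′ end of abd-A and in no annotated gene, on the side that faces Ubx. Its signal was 246.9, rank 302 of 3250, with a −log10 global IDR of 5.0 in the authors' ranked list. It measured 118.7 in replicate 1 and 132.2 in replicate 2, the highest Hox value in each. At 136 bp it was narrower than the median peak of 284 bp, like some other main-list peaks of similar signal. Of its bases, 52.9% were G or C. It is also the member nearest to the edge of the 10 kb rule, and the next main-list peak outward, 4488 bp further and 12807 bp from abd-A, fell outside it at 3R:16794265-16794548 with a signal of 57.3.

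Scr, which patterns the labial and first thoracic segments, had 1 main-list peak, in none of its exons or introns. The peak lay at 3R:6818639-6818922, 4339 bp beyond the 3′ end of Scr and between Scr and Dfd. It had 105.9 in the main list, 64.8 in replicate 1 and 42.1 in replicate 2, and was in both replicates' thresholded lists. Without the 10 kb margin neither Scr nor abd-A would have been counted.

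The 4 genes without a main-list peak differed in how close they came. lab, which acts in the head and midgut, had its highest ranked peak at 3R:6657336-6657619, at the promoter of the neighbour CG1307, with 62.6, a −log10 global IDR of 1.56, and 39.2 in replicate 1 and 20.4 in replicate 2. It passed in no thresholded list. lab also had an intronic peak at 3R:6664449-6664732 that passed in the other series-wide list alone, with 47.7 there, 16.9 in replicate 1 and 30.2 in replicate 2. Ubx, which sets posterior thoracic and first abdominal identity, had no thresholded peak inside its 77804 bp in any list. Its margin held 1 at 3R:16655758-16656041, with 60.3 in the other series-wide list, 19.3 in replicate 1 and 39.7 in replicate 2, but the summit lay 238 bp upstream of a start of modSP, a serine protease gene of immune signalling. A second peak, in replicate 2 alone, lay at 3R:16647030-16647285 with a signal of 53.4, at the promoter of CG10324. That position lies in an empty stretch of the other 3 ranked lists, 3R:16629715-16648767 in the main one. For Ubx, a count of 0 in the main list allows up to 37.7 summits per Mb by the exact Poisson interval, a limit above the 23.6 of the arms.

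pb and Dfd had no summit in any of the 4 thresholded lists. In the main ranked list the highest peak of pb, a gene for the adult mouthparts, was in a coding exon at 3R:6710712-6710995 with 40.7, and its −log10 global IDR was 0.14. The highest peak of Dfd, which patterns the maxillary and mandibular segments, lay 256 bp upstream of its only annotated start at 3R:6791438-6791721. It had a signal of 48.9 and a −log10 global IDR of 1.84, against 2.17 to 5.0 for the 8 main-list Hox peaks. Replicate 1 had 30.7 there, and replicate 2 had an empty stretch of 13.7 kb, 3R:6778614-6792336, over the peak and the start of Dfd. The zeros at these short regions bound little, with upper limits of 68.0 per Mb for pb, 99.3 for lab and 121 for Dfd.

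**Figure D2:**
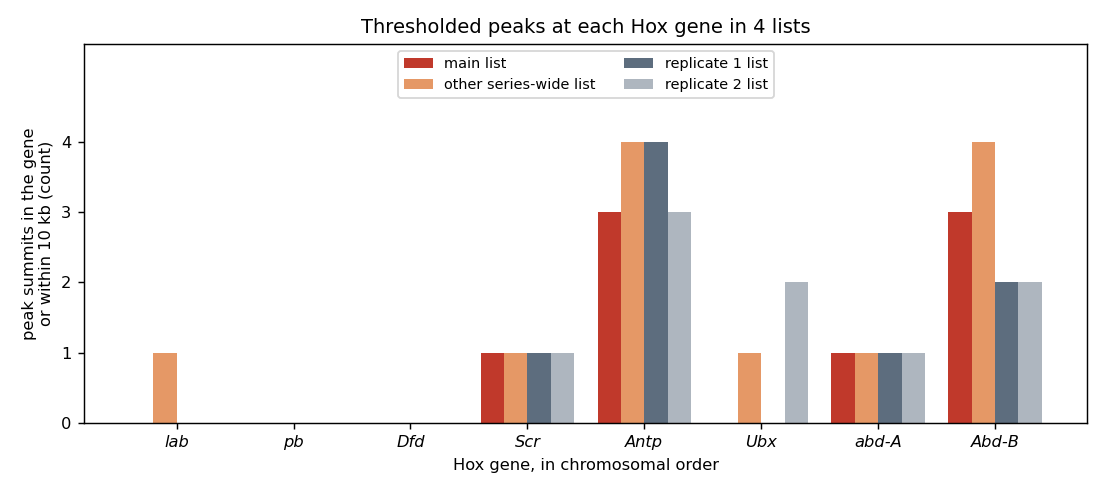
Number of peak summits in each Hox gene or within 10 kb of it, in the main list, the other series-wide list and the 2 replicates' own thresholded lists. Scr and abd-A have 1 summit in each of the 4 lists, Antp has 3 or 4 and Abd-B 2 to 4, pb and Dfd have 0 in all, and lab and Ubx have summits in some lists only.

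The Hox peaks recurred between replicates about as other peaks did. Of the 8 main-list peaks, 6 were in both replicates' thresholded lists (75%, 95% Wilson interval 40.9 to 92.9%), against 1646 of 3250 on the arms (50.6%). The main list was itself made from both replicates, which fixes part of this agreement. The ratio of replicate 1 to replicate 2 ran from 0.717 to 1.76 over the 8 peaks, with an SD of 0.54 on the log2 scale, against an SD of 0.47 over 3204 main-list peaks of the arms. All 8 were within a factor of 2, as were 96.3% on the arms. Across the 8 peaks, which share libraries, Spearman's rho between replicates was 0.643, and over the arms it was 0.769. Of the 8 thresholded Hox peaks of replicate 1, 6 overlapped one of replicate 2 (75%), and of the 9 of replicate 2, 6 overlapped one of replicate 1 (66.7%). On the arms these shares were 68.3% and 76.0%.

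**Figure D3:**
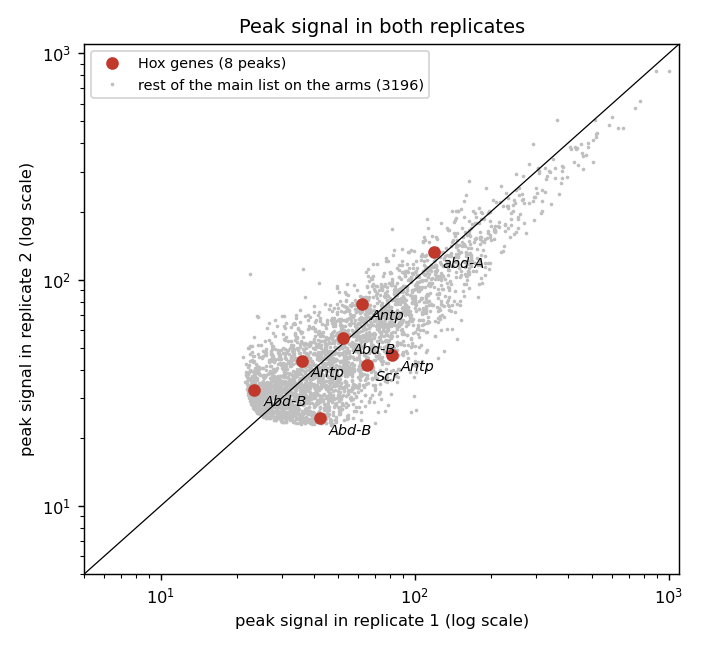
Peak signal in replicate 1 against replicate 2 on log axes, from the highest overlapping peak in each replicate's own ranked list; the line marks equal values. The 8 Hox peaks (red) lie within the cloud of the other main-list peaks (grey), with abd-A highest at 118.7 and 132.2.

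The thresholded Hox peaks were of ordinary height. Their median signal was 105.7 in the main list, against 90.1 on the arms. In the other 3 thresholded lists it was lower over the Hox genes than on the arms, at 75.4 against 86.8 in the other series-wide list, 57.1 against 60.0 in replicate 1 and 46.5 against 58.2 in replicate 2. The direction thus depends on the list, and signals of different lists are not on a known common scale.

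No Hox peak of the main list lay at a promoter. Of the 8 summits 0 were within 500 bp of a protein-coding start, which allows a share of up to 32.4% by the Wilson interval, against 42.7% of 3250 summits on the arms. How much of the Hox sequence and of the arms lies that near a start was not measured. The shares by class are therefore not on an equal footing. Introns held 6 of 8 Hox summits (75%, 40.9 to 92.9%) against 36.9% on the arms. Intergenic sequence held 2 of 8 (25%, 7.15 to 59.1%) against 15.4%. In the other lists the share was 1 of 12 in the other series-wide list (8.33%), 0 of 8 in replicate 1 and 2 of 9 in replicate 2 (22.2%). These thresholded promoter peaks, in the Ubx margin, were at the neighbours modSP and CG10324. The ranked list also had promoter peaks at Hox genes, among them those at Dfd and at CG1307 beside lab. The starts of Scr and abd-A lay where the main ranked list held no peak, and the part of this in these shares was not tested.

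With the long ranked lists, peaks lay over the Hox genes at about the density of the arms, empty stretches included. The main ranked list had 1035 summits per Mb over the Hox genes (exact Poisson interval 948 to 1129), against 988 on the arms and 1088 on 3R. Its median signal was 18.3 over the Hox genes and 17.9 on the arms. By gene the median ran from 16.7 in Ubx and abd-A to 20.2 in Dfd and Scr. The lower and upper quartiles of single peaks on the arms were 11.4 and 25.3. The medians rest on 23 to 124 peaks a gene, and differences between genes were not tested. Of the 515 Hox peaks, 26.4% were above the upper quartile of the arms and 9.71% above their 90th percentile, close to the 25% and 10% that define these levels. In replicate 1 the Hox median was 10.8 and so was that of the arms, and in replicate 2 it was 12.3 over the Hox genes and 11.7 on the arms. By gene, the share above that 90th percentile was 14.3% at Abd-B, 12.9% at Antp, 11.9% at abd-A, 10.5% at Scr, 9.09% at lab, 6.45% at Ubx, 6.25% at pb and 4.35% at Dfd. The 8 main-list peaks are counted in the shares of the first 4 genes, which sets part of this order. The range was not tested. Of all ranked Hox peaks, 8 reached the score of 830 at which the main list ends. They are the 8 main-list peaks, which follows from that cutoff.

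**Figure D4:**
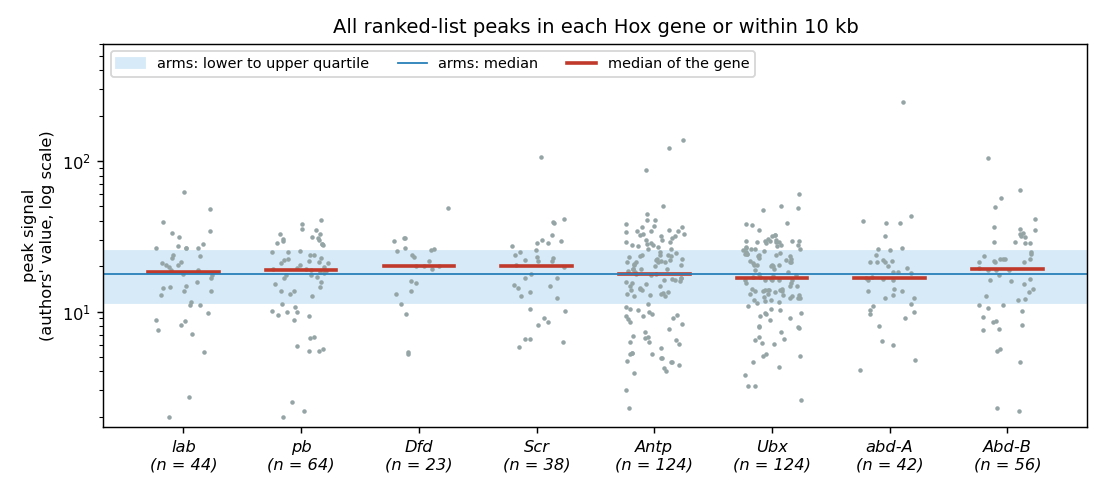
Signal of every peak of the main ranked list in each Hox gene or within 10 kb of it, on a log axis; red bars are the medians by gene, the blue line and band the median and the lower to upper quartile of the arms. The medians run from 16.7 to 20.2 and the band, for single peaks, from 11.4 to 25.3, while single peaks at abd-A, Antp, Scr and Abd-B stand above 100.

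Words of the homeodomain family were found under some Hox peaks. In a window that reached 100 bp to each side of the summit, the core TAATTA was in 2 of 8 Hox windows (25%), in 3 of 16 windows set 1000 bp to either side of the same summits (18.8%), and in 15.4% of main-list windows on the arms. No core lay within 50 bp of a summit, and over whole peaks it was in 3 of 8 Hox peaks against 19.0% on the arms. The palindromic P2 and P3 dimers, which paired-class proteins bind and in which the core words face each other across 2 or 3 bases, were in 0 of 8 Hox windows, against 2.15% and 2.71% on the arms. The Hox-Exd word, bound by Hox proteins with their cofactor Exd, was in 1 of 8 Hox windows, at Abd-B, and in 13.1% on the arms. The K50 word TAATCC was in 1 of 8, 40 bp from the summit beside Scr, and in 5.75% on the arms. The control word AATATT, chosen for its base content, was in 2 of 8 Hox windows and in 27.0% on the arms. With 8 windows none of these shares can be told from that of the arms.

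Words of other chromatin proteins were present in several peaks. The GAGA word was in 5 of 8 Hox windows (62.5%, Wilson interval 30.6 to 86.3%), in 4 of 16 flanking windows (25%) and in 24.2% on the arms. It was 1 of 16 motifs searched, and in windows of 50 bp either side its Hox share was 25%. The Pho word was in 3 of 8 Hox windows, in 3 of 16 flanks and in 27.7% on the arms. Over the whole peak the GAGA word occurred in 6 of 8, among them the highest peaks of Antp, Scr and abd-A, against 31.5% of arms peaks. The BEAF-32 insulator word CGATA was in 0 of 8 Hox windows, against 27.2% on the arms. The promoter words DRE (TATCGATA) and M1BP (GTCACACT) were in 0 of 8, against 2.68% and 1.75% on the arms. The Elba insulator word CCAATAAG was likewise in 0 of 8 and in 0.708% on the arms. The Zelda word CAGGTA was in 1 Hox window, beside abd-A, and in 4.37% on the arms, and the E-box CAGCTG was in 1, at Antp, and in 9.75%. Median GC was 39.8% in Hox windows, 35.6% in their flanks and 36.3% on the arms, so Hox windows are richer in GC, and its part in these shares was not tested.

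The 6-mer ACAGTG, included because it was already known to be frequent at these summits, was in 4 of 8 Hox windows (50%, Wilson interval 21.5 to 78.5%), in 0 of 16 flanks and in 22.0% on the arms. In windows of 50 bp either side its Hox share was 25%. All 3 Abd-B peaks held it, as did the lowest Antp peak. In the Abd-B peaks, in order of height, its matches lay 27 bp from the summit of the first, 16 and 24 bp from that of the second, and −51 bp from that of the third. In the Antp peak it lay 65 bp from the summit. In the ranked list 11.1% of 515 Hox windows held the word. Of the words searched, CTCF-like AGNTGGCGC was in 1 of 8 Hox windows and 2.28% on the arms, and that peak, 3R:6912251-6912534 in Antp, held both a match 3 bp from its summit and another at −105 bp.

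Elsewhere in the complexes the main list had 5 peaks outside the 10 kb rule, 1 of which is the peak beyond abd-A given above. The highest, 3R:6759501-6759784, had its summit 177 bp upstream of a start of bcd, the anterior morphogen gene, with 122.3 in the main list, 44.4 in replicate 1 and 78.4 in replicate 2. Another promoter peak, 3R:6762770-6763053 with 44.8, was at Ama, an adhesion protein gene. In the bithorax complex, 3R:16869253-16869536 lay in introns of MSAmiP and of the long non-coding RNA gene iab8, with 72.1 in the main list, 48.2 in replicate 1 and 34.5 in replicate 2. The peak at 3R:16769416-16769699 lay in an intron of the non-coding gene bxd, upstream of Ubx, with 66.9 in the main list and 30.7 in replicate 1. It was in no other thresholded list, and both the other series-wide ranked list and that of replicate 2 had an empty stretch of 14.3 kb there. Over their whole spans the Antennapedia complex had 6 main-list summits in 357.8 kb, 16.8 per Mb, and the bithorax complex had 7 in 335.6 kb, 20.9 per Mb.

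Counts differed among lists of genes that act with the Hox genes, and with 4 to 13 genes a list the differences were not tested. Of 13 genes known as Hox targets, 8 had a main-list summit in the gene or within 10 kb, where 51.6% of all genes had one. In the other series-wide list 6 did, where 53.0% of all genes did. In each replicate's own list 4 did, where the share of all genes was 44.0% in replicate 1 and 41.8% in replicate 2. The highest in the main list was in dpp, a BMP ligand gene that Ubx controls in the midgut, with 227.7 at 2L:2433587-2433696. tup, a LIM homeodomain gene, had 195.2, and kn, CrebA, fkh, Dll, opa and wg had 57.9 to 92.0. Of 6 Hox cofactor genes hth alone had main-list summits, 4 of them and up to 162.4, and exd, whose protein hth carries into the nucleus, had 0. Of 9 related homeobox genes outside the complexes 3 had one, cad with 150.6, ro with 124.1 and ind with 43.9. In the Antennapedia complex zen and bcd shared their 2 summits, and zen2 and ftz had 0. Of 8 gap and pair-rule genes, which set the domains of the Hox genes in the early embryo, 0 had a summit in any thresholded list. The share of all genes was 51.6% in the main list. These 8 genes are short, and whether length has a part in their count was not tested.

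Across the 8 lists, the genes of at least 20 kb whose peak densities were most like those of the Hox genes together were sm, CG43163, Calx, fog and kis, among 1012 compared. The measure was the Euclidean distance between log2 densities, which ran from 0.322 for sm to 0.537 for kis. sm had 15.0 main-list and 1010.1 ranked summits per Mb, against 16.1 and 1035 for the Hox genes. CG43163, Calx and fog each had 1 density in all 4 thresholded lists, at 18.4, 17.4 and 19.7 per Mb. Such values rest on very few summits and on gene length, so the likeness is coarse, and it was not tested. The tagged gene Rx itself had 1 main-list summit inside it and 4 within 10 kb, and 0 inside it in either replicate's thresholded list.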

How the data were processed

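ChIP-seq peak lists of 2 biological replicates were used, on dm6 per the labels, with sonicated fragments of 200 to 800 bp. A control experiment that the labels name as possible was not analysed here. The sources used here do not name an aligner or peak caller. Each list holds the authors' deposited peak positions, a score and a signal. The ranked lists also hold the authors' deposited −log10 global IDR. No file gives reads, so depth is unknown. Replicate signals are those of the highest overlapping peak (at least 1 bp) in each replicate's own ranked list.

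Summits were column 2 plus column 10, positions are 1-based, and genes came from Ensembl release 115 (BDGP6.54). Summits were classed as promoter first, then by exon type, then as intron, and otherwise as intergenic. Sequence came from the RefSeq Release 6 genome, and 16 motifs were searched on both strands, up to 100 bp from each summit. Python 3.11.15, pandas 2.3.3, numpy 2.4.6, scipy 1.17.1 and matplotlib 3.10.9 were used, and the counting was tested on simulated peaks.

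With 1 group and chosen genes no p-value is given, and intervals are 95% Wilson or exact Poisson intervals for counting error. The members, gene lists and motifs were chosen with earlier results of these data known. Named are the 8 genes, genes over or nearest to thresholded Hox summits, other genes of the complexes, listed companion genes with a summit (up to 6 a list by signal, with opa and wg added after their values were seen) and the 5 genes of most similar density. Gene pairs that share a summit were counted once in totals. Alternatives were other lists, each replicate's list, stricter thresholds, margins of 0, 2 and 20 kb, windows of 50 and 200 bp either side, and promoters of 1000 bp.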

Additional observations from a re-analysis of the deposited data

How the results depend on the processing

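The number of Hox genes with a main-list summit was 2 in place of 4 with a margin of 2 kb and also with none, since the peaks beside Scr and abd-A lie beyond both. The share of all genes was computed with the 10 kb margin alone, and not at the stricter thresholds. Gene counts at other margins or at those thresholds thus have no background beside them. The number of summits was 5 in place of 8 among the upper 50% of peaks by signal and at a global IDR of at most 0.001. Those sets hold 1625 and 1681 of the 3250 main-list peaks on the arms, and their density ratios to the arms were 0.851 and 0.822. Over the whole span of both complexes the number was 13, an alternative chosen after seeing the data. The density ratio to the arms was 0.917 to 1.14 when 1 replicate was left out, against 0.681. The median Hox signal was 75.4 in the other series-wide list and 46.5 to 57.1 with 1 replicate, against 105.7. The median of the arms moved too, to 86.8 and to 58.2 to 60.0, against 90.1. With 1 replicate the ranked median was 10.8 to 12.3 over the Hox genes, against 18.3, and 10.8 to 11.7 on the arms, against 17.9. The share of Hox peaks found in both replicates was 100% with their ranked lists. Among known Hox targets, 4 genes had a summit with either replicate left out, against 8. The share of all genes was 44.0% in the list of replicate 1 and 41.8% in that of replicate 2. At a global IDR of at most 0.001 the count was also 4, and in the highest 50% of peaks and with no margin it was 3. With a margin of 20 kb the counts were 2 cofactors, 7 related homeobox genes and 2 gap and pair-rule genes. With no margin they were 1 related homeobox gene and 0 homeobox genes of the Antennapedia complex, where a margin of 2 kb gave 1. The promoter share was 0 to 22.2% with 1 replicate left out and 8.33% in the other series-wide list, against 0. Of 48 motif shares under other windows or lists, 43 stayed within the wide Wilson interval of the main share and 5 did not: in windows of 50 bp either side, TAATTA, the E-box and the control word fell to 0 and GAGA to 25%, and in windows of 200 bp BEAF-32 was at 37.5%. Within the interval, ACAGTG was at 25% in windows of 50 bp, against 50%, and Pho at 62.5% in windows of 200 bp, against 37.5%. The cause of these shifts was not tested where the alternative itself does not set it. No paired analysis was possible because 1 group gives no comparison to pair. Read depth is unknown, so a gene with 0 peaks cannot be told from one below detection.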

Other observations

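Values named after they were seen: the Abd-B peak at 3R:16958292-16958575 held ACAGTG matches in opposite orientation, the reverse-strand one first, separated by 2 bases, and of 3250 main-list peaks on the arms it was the 1 that held such a pair. The Antp peak at 3R:6912251-6912534 was 1 of 16 of those 3250 peaks (0.492%) with at least 2 CTCF-like matches. Over whole peaks, 3 of 8 Hox peaks held at least 2 Pho matches, against 8.86% on the arms, and 4 of 8 held at least 2 GAGA matches, against 10.8%. The 3 with Pho matches were the 3 Abd-B peaks. None of these values was tested.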
